A study of Mus musculus with 120 samples.

Results

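A set of 10 genes named for their place in cerebellar granule cells were followed through the whole series: Cbln1, Cbln3, Gabra6, Neurod1, Zic1, Zic2, Reln, Grin2c, Fat2 and Calb2. They were chosen by name, with earlier results of these data known, and were matched by symbol to the gene column of both count tables. All 10 were found among 55573 genes. The tables hold 120 poly(A) RNA-seq libraries from 24 C57BL/6J mice, each of which gave 5 brain regions. WT mice carried unmodified Atxn1. The mice called 175Q carried Atxn1 175Q/2Q, a knock-in allele with an expanded CAG tract in place of 1 normal copy, made as a model of spinocerebellar ataxia type 1. The mice called 175QK772T carried that same expanded allele with K772T added, a substitution that falls within the signal by which ataxin-1 enters the nucleus. There were 4 mice per genotype and age, at 10 weeks and 26 weeks, and both sexes were present in every group. The 175QK772T group at 10 weeks held 3 females and 1 male, and every other group held 2 of each sex. Libraries at 10 weeks came from cerebellum, brainstem, cortex, hippocampus and striatum, and at 26 weeks from cerebellum, medulla, cortex, hippocampus and striatum. The 2 ages were prepared and sequenced as separate batches, so age and batch cannot be told apart. At 26 weeks the free-text descriptions give the line another repeat number, and the genotype field was used.

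Granule cells are the small, densely packed excitatory neurons of the cerebellar cortex. They receive mossy fibres in glomeruli, where inhibition passes through GABA-A receptors that hold the alpha 6 subunit and excitation partly through NMDA receptors that hold GluN2C. Their axons, the parallel fibres, contact the dendrites of Purkinje cells, and cerebellin-1 released from them binds presynaptic neurexin and helps to hold these synapses together. The libraries are bulk tissue, so fewer cells of a type and less RNA per cell cannot be told apart.

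Promoter sequences from RefSeq (GRCm38.p6, 250 bases before to 50 after the annotated start) were found for 7 of the 10 genes, and those of Cbln1, Zic2 and Calb2 were not used here. The starts in RefSeq can differ from the gene ends used for counting. The 3 windows below are printed because the transcripts behave differently in the results: Cbln3 and Neurod1 fell together in the young mutant cerebellum, while Gabra6, expressed in the same cells, did not pass the test. All 3 lie on the minus strand and are written 5′ to 3′ in the direction of transcription. Capitals mark E-boxes (CANNTG, the kind of element bound by basic helix-loop-helix factors such as NEUROD1) and half-sites of nuclear factor I (TTGGC, or GCCAA on the other strand).
Cbln3, chr14:55884207-55884506: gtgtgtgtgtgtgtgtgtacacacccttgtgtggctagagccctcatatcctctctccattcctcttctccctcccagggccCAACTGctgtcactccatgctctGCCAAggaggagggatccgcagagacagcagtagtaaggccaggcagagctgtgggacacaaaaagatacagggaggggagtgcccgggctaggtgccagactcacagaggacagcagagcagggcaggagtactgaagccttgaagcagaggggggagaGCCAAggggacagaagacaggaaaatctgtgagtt
Neurod1, chr2:79456587-79456886: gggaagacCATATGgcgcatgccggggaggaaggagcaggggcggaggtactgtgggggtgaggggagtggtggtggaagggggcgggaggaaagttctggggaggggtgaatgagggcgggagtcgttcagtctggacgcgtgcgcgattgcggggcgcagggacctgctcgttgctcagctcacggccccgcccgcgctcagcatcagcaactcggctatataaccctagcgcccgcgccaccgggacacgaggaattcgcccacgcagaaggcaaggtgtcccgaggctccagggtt
Gabra6, chr11:42321023-42321322: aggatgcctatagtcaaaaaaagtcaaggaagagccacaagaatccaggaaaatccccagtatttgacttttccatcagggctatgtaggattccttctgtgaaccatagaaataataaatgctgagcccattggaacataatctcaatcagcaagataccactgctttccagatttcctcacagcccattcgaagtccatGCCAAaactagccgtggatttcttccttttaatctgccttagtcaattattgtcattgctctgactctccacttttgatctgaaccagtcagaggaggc
The Cbln3 window holds an E-box beginning 168 bases before the start and NFI half-sites at 145 bases before it and 16 bases after it. The Neurod1 window holds 1 E-box, 242 bases before the start, and the Gabra6 window holds 1 NFI half-site, 49 bases before it. Such short motifs are common: CANNTG was found in 72.3% and TTGGC in 46.7% of 32851 promoter windows of this length, on both strands. The octamers TGAATGAA and TGAATGGA, the form of site bound by Capicua, a repressor that associates with ataxin-1, were in 1.3% and 1.21% of windows and in none of the 7. A match or its absence here is a description of these letters alone.

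In WT mice every one of the 10 transcripts was more abundant in cerebellum than in the mean of the other 4 regions at both ages. Across all genes, 69.8% passed this comparison at 10 weeks and 64.2% at 26 weeks, and 34.5% and 31% passed it as higher in cerebellum, so region differences were common. The size of the difference varied widely among the 10. Gabra6, Cbln3 and Fat2, a giant protocadherin of parallel fibres, were nearly restricted to cerebellum, with log2 differences of 10.78 ± 0.26, 9.88 ± 0.23 and 9.71 ± 0.20 (SE) at 10 weeks. Cbln1 (6.24 ± 0.13), Neurod1 (6.20 ± 0.09), Zic1 (5.51 ± 0.06), Zic2 (4.58 ± 0.06) and Calb2 (4.14 ± 0.15) followed. Grin2c, which encodes GluN2C, stood at 2.92 ± 0.06, and Reln, which encodes the secreted glycoprotein reelin, was the least cerebellar at 1.87 ± 0.05.

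Per length, the most abundant transcript in WT cerebellum at 10 weeks was Cbln3 at 1450 ± 96.6 TPM (SD, n = 4), followed by Gabra6 at 1280 ± 26.9, Cbln1 at 1050 ± 98.6 and Calb2 at 902 ± 36.8. Zic1 (614 ± 33.4 TPM), Neurod1 (514 ± 15.2), Grin2c (346 ± 58.8), Zic2 (287 ± 20.8) and Fat2 (226 ± 18.8) came next, and Reln was lowest at 57.8 ± 3.92. The order was the same at 26 weeks, from Cbln3 at 1340 ± 138 and Gabra6 at 1250 ± 123 down to Reln at 71.4 ± 8.71. Neighbours in that order whose SDs overlapped were Grin2c and Zic2 at 10 weeks, and at 26 weeks Cbln3 and Gabra6, Cbln1 and Calb2, Zic1 and Neurod1, and Zic2 and Fat2.

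The next highest region differed between genes. Brainstem held the next level at 10 weeks for Cbln1 (74.9 ± 1.7 TPM, 14-fold below cerebellum) and for Calb2 (304 ± 29.7 TPM, 2.97-fold below). For Neurod1 it was the hippocampus at 24.9 ± 1.43 TPM, 20.6-fold below cerebellum. Reln and Grin2c were next highest in striatum, at 24.3 ± 3.27 and 47 ± 2.62 TPM, 2.38-fold and 7.36-fold below cerebellum. Grin2c differed little among the 3 forebrain regions, with 44.5 ± 1.76 TPM in cortex and 46.7 ± 1.41 in hippocampus. At 26 weeks the ratios to the next region ran from 2.9 for Reln to 145 for Gabra6, and medulla took the place of brainstem for Cbln1 (13.2-fold) and Calb2 (3.02-fold).

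**Figure D1:**
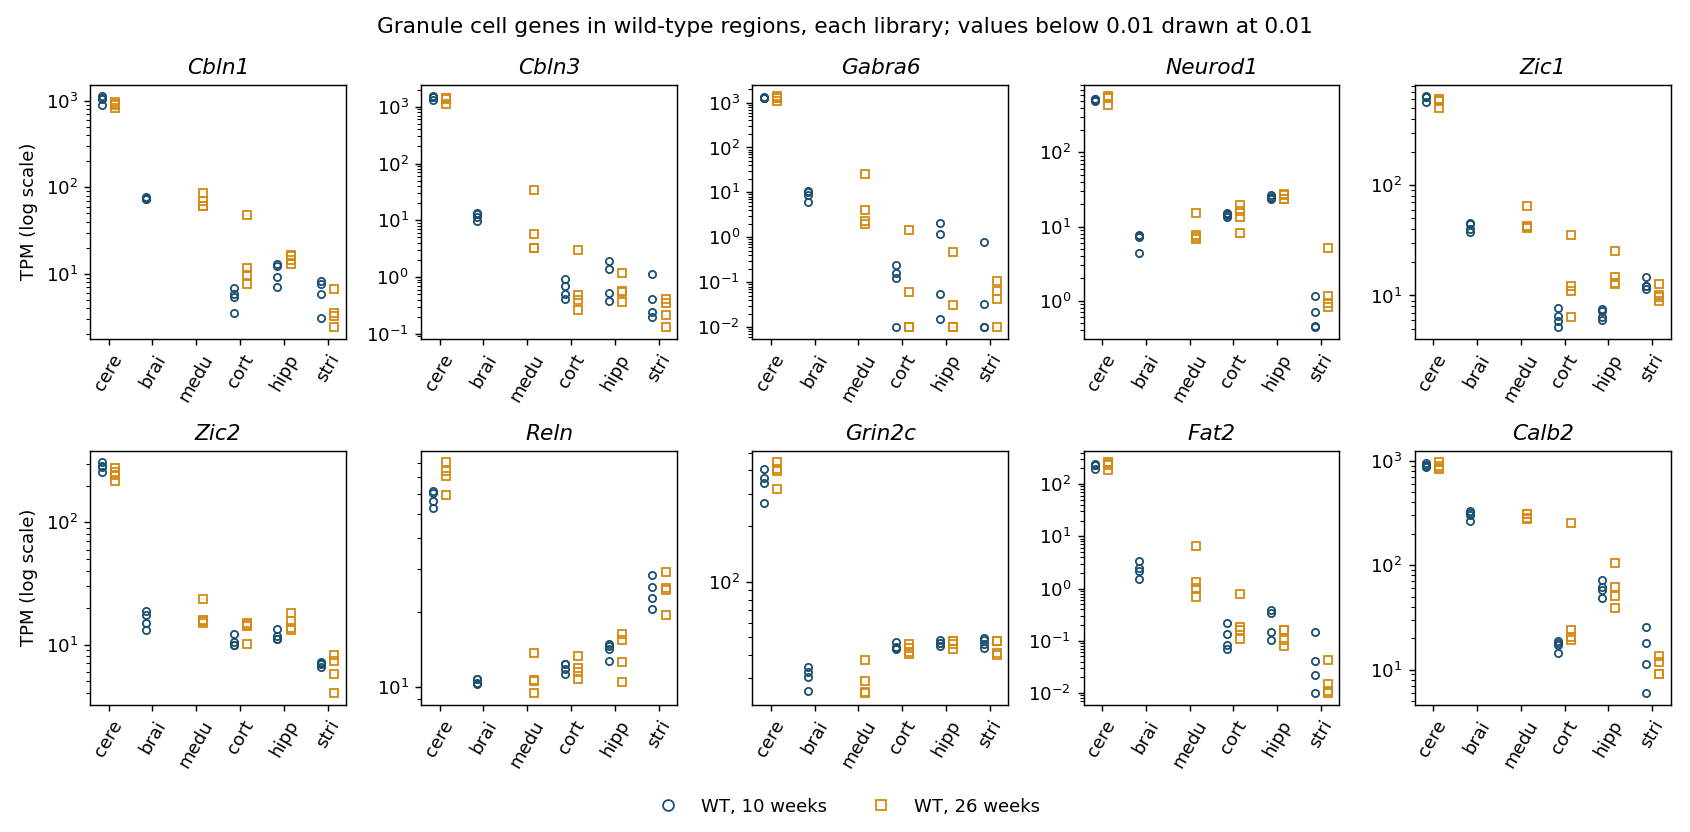
Level of the 10 genes in the 5 regions of WT mice at each age, in TPM on a log scale; points are libraries, values below 0.01 are drawn at 0.01, and the regions are abbreviated to cere (cerebellum), brai (brainstem), medu (medulla), cort (cortex), hipp (hippocampus) and stri (striatum). Cerebellum is the highest region for every gene, by 142-fold over the next region for Gabra6 and 2.38-fold for Reln at 10 weeks.

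Library depth was 68241854 to 103542385 assigned counts at 10 weeks and 28030190 to 57281437 at 26 weeks, and in cerebellum 68241854 to 89642011 and 30362302 to 49945700. Atxn1, whose expanded copy remains transcribed, measured 49.2 ± 1.63 CPM (SD, n = 4) in cerebellum of WT mice at 10 weeks. It measured 54.4 ± 2.22 with the 175Q allele and 61.9 ± 1.72 with the 175QK772T allele, so its level does not check the labels of the mutants. In 26-week cerebellum 2 libraries stood apart: the share of mitochondrial transcripts was 13.5% (175Q, replicate 4) and 11.5% (175QK772T, replicate 2), where the remaining 10 had 3.89% to 5.01%. The calls among the 10 genes at that age are given with and without them, and all other values of that age include them. Several libraries outside cerebellum held cerebellum-restricted transcripts above their group, and are named beside the results they touch or among the flagged results at the end.

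In the cerebellum at 10 weeks, 5 of the 10 genes fell in 175Q against WT (Cbln1, Cbln3, Neurod1, Zic2 and Fat2) and 1 rose (Calb2), while Gabra6, Zic1, Reln and Grin2c did not pass the test. Over all 20447 genes tested, 11.4% passed, 6.81% as lower and 4.58% as higher. The median log2 difference over the 10 genes was -0.22, against 0.01 over all genes. Because the genes were chosen with earlier results known, these values do not test the set against all genes. How many of all genes have no overlap between genotypes within a region was not counted, so such separations below describe the named genes alone. Values are CPM, a gene's counts relative to the size of its library, with sizes scaled within the 12 cerebellum libraries, and a gene was called at an adjusted p below 0.05 in edgeR's quasi-likelihood test with genotype and sex as terms, adjusted by Benjamini-Hochberg over all genes tested.

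Cbln1 (chr8:87468405-87472609, minus strand, GRCm38) encodes the secreted synapse organizer cerebellin-1. In WT its 4 libraries gave 707, 845, 893 and 838 CPM, in 175Q 558, 532, 533 and 598, and in 175QK772T 606, 612, 575 and 621. Every mutant library lay below every WT library. Cbln1 fell by 32.4% in 175Q (log2 difference -0.56 ± 0.06 SE, adjusted p = 1.78e-05), the steepest of the 10 genes.

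Cbln3 (chr14:55878913-55884392, minus strand) encodes cerebellin-3, which is secreted in complexes with cerebellin-1. It was at 1640, 1890, 1930 and 1820 CPM in WT, 1410, 1390, 1400 and 1420 in 175Q, and 1420, 1410, 1370 and 1610 in 175QK772T. The 175Q libraries lay within a narrow band below all WT libraries, and the transcript fell by 22.9% (log2 -0.37 ± 0.05, adjusted p = 0.000186). Reln (chr5:21884454-22344702, minus strand), the third secreted protein, was at 323, 368, 379 and 344 CPM in WT and 359, 356, 340 and 395 in 175Q. These ranges overlapped almost fully, with a difference of 0.04 ± 0.05 (95% interval -0.07 to 0.15, adjusted p = 0.718).

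The receptor subunits did not pass the test described above. Gabra6 (chr11:42306437-42321072, minus strand) was at 807, 828, 847 and 801 CPM in WT, 749 to 814 in 175Q and 781, 784, 763 and 817 in 175QK772T. Its log2 difference in 175Q was -0.07 (interval -0.15 to 0.01, adjusted p = 0.292), so the interval holds no change as large as that of Cbln1. Grin2c (chr11:115249169-115267243, minus strand) was at 346, 528, 449 and 472 CPM in WT and 386, 365, 351 and 421 in 175Q. WT replicate 1 lay below all 175Q libraries while the other WT libraries lay above them, and the difference of -0.23 ± 0.08 had an adjusted p of 0.0929. Without WT replicate 1 it was -0.32 with an adjusted p of 0.00323. Without the low-count filter the difference stayed at -0.23 with all libraries, and the adjusted p was 3.42e-07. That filter removes other genes and no Grin2c counts, so this p reflects a changed estimate of the spread and not a larger difference.

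Among the transcription factors, Neurod1 (chr2:79452521-79456751, minus strand), a basic helix-loop-helix factor of differentiating and mature granule cells, was at 365, 355, 377 and 348 CPM in WT, 311, 303, 267 and 295 in 175Q and 318, 312, 312 and 319 in 175QK772T. Both mutant groups lay below all WT libraries, and Neurod1 fell by 18.6% in 175Q (log2 -0.30 ± 0.04, adjusted p = 0.000109). The zinc finger gene Zic2 (chr14:122475435-122479852, plus strand) was at 192, 229, 218 and 212 CPM in WT, 171, 170, 201 and 193 in 175Q and 175, 172, 164 and 190 in 175QK772T. It fell by 13.8% in 175Q (-0.21 ± 0.04, adjusted p = 0.00409), with 2 of the 175Q libraries above the lowest WT library. Its relative Zic1 (chr9:91358058-91365810, minus strand) was at 825, 916, 928 and 931 CPM in WT and 834, 828, 806 and 828 in 175Q. Zic1 differed by -0.13 ± 0.04 (adjusted p = 0.0848), and passed without WT replicate 1 (-0.16, adjusted p = 0.02), in DESeq2 (-0.13, adjusted p = 0.0184) and without the low-count filter (0.0228).

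Fat2 (chr11:55250609-55336564, minus strand) was at 739, 894, 881 and 868 CPM in WT, 676, 613, 667 and 720 in 175Q and 696, 708, 743 and 671 in 175QK772T. All 175Q libraries lay below all WT libraries, and it fell by 20.9% (-0.34 ± 0.06, adjusted p = 0.0016). Calb2 (chr8:110137502-110168210, minus strand) encodes calretinin, a calcium buffer of granule cells and of unipolar brush cells. It moved the other way, at 387, 426, 401 and 405 CPM in WT, 534, 504, 513 and 526 in 175Q and 515, 514, 479 and 539 in 175QK772T. All 8 mutant libraries lay above all WT libraries, and in 175Q Calb2 rose by 28.3% (0.36 ± 0.04, adjusted p = 1.61e-05).

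**Figure D2:**
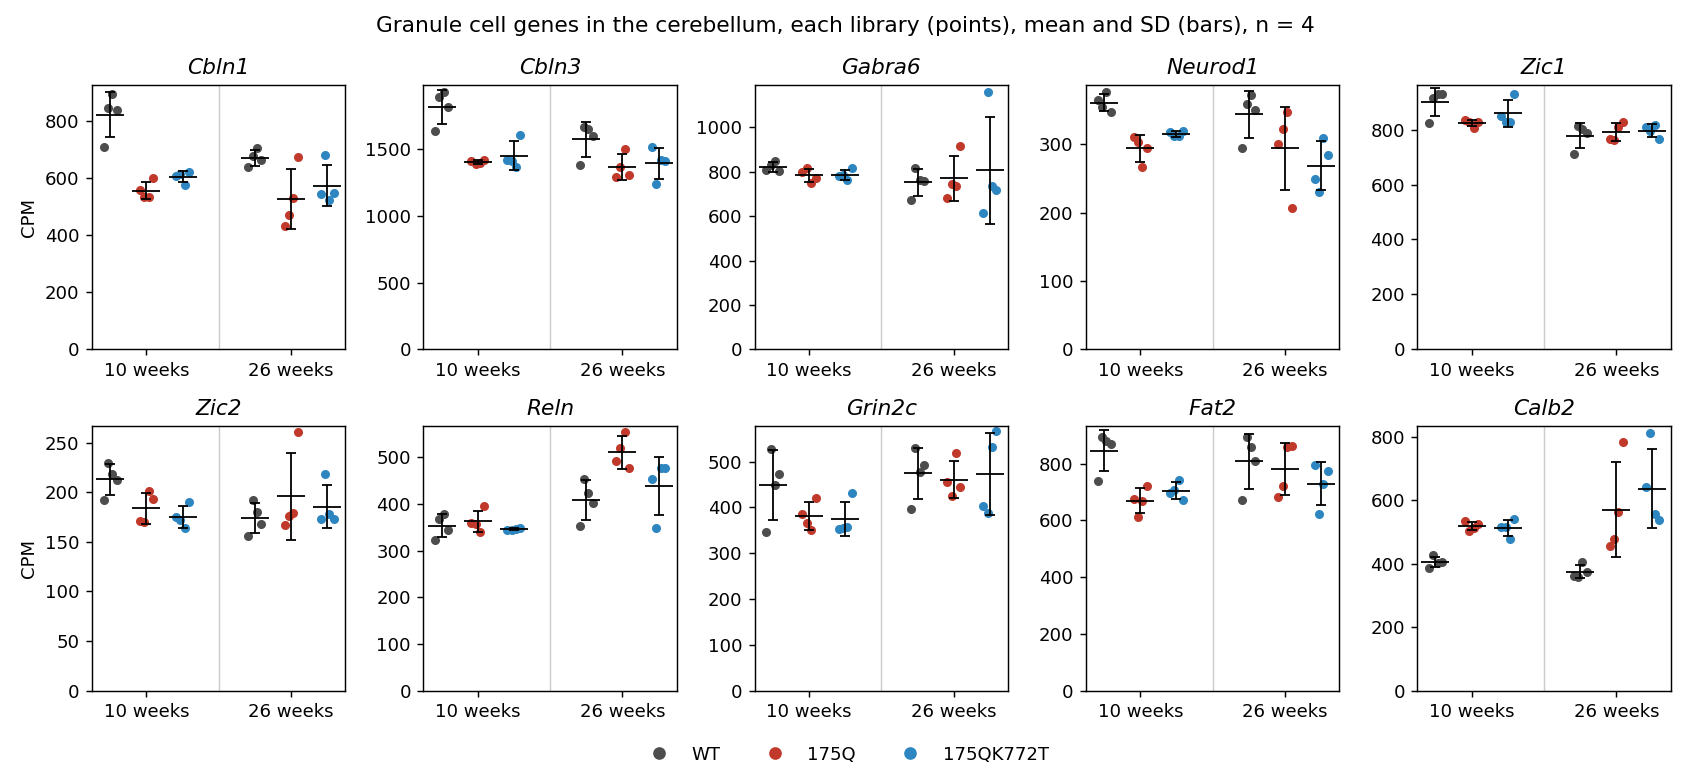
CPM of the 10 genes in each cerebellum library, by genotype and age; points are single mice, with the mean and SD of each group of 4. At 10 weeks the 4 175Q libraries lie below all WT libraries for Cbln1, Cbln3, Neurod1 and Fat2 and above them for Calb2. How many of all genes separate in this way was not counted.

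Some exonic bases are shared with neighbouring genes: Neurod1 shares 201 with Cerkl on the same strand and others with Gm26755 on the opposite strand, Zic1 shares 60 with Zic4, Reln shares 246 with the antisense Gm10475, and Grin2c shares 91 with the miRNA gene Gm25837. Counting used strand at 10 weeks, and at 26 weeks the setting is not given in the sources used here, so reads of opposite-strand partners may be mixed there.

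The allele with K772T moved the same 6 genes against WT at 10 weeks: Cbln1, Cbln3, Neurod1, Zic2 and Fat2 fell and Calb2 rose. Over all genes 4.04% passed in this contrast, 2.48% as lower and 1.56% as higher. Both contrasts use the same WT libraries. Cbln1 differed by -0.43 ± 0.06 (adjusted p = 0.000743), Cbln3 by -0.31 ± 0.05 (0.00302), Zic2 by -0.24 ± 0.04 (0.0046) and Neurod1 by -0.21 ± 0.04 (0.00525), all on the log2 scale. Calb2 differed by 0.35 ± 0.04 (adjusted p = 9.59e-05). The 175QK772T libraries lay below all WT libraries for Cbln1, Cbln3, Neurod1 and Zic2 and above them for Calb2. The share of all genes with no overlap in this contrast was not counted. Fat2, at -0.25 ± 0.06 with an adjusted p of 0.0358, lost its call on leaving out WT replicate 2, 3 or 4, 175QK772T replicate 1, 2 or 4, or 175Q replicate 1, with adjusted p from 0.0534 to 0.218. Grin2c at -0.20 ± 0.08 (adjusted p = 0.231) passed without WT replicate 1 (-0.31, adjusted p = 0.0133) and without the low-count filter (5.43e-05).

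Compared directly, 175QK772T and 175Q did not differ past the threshold in any of the 10 genes in edgeR or in DESeq2. Of all genes 1.19% passed in edgeR, 228 of 244 of them as higher in 175QK772T, and 2.8% passed in DESeq2. At an unadjusted p below 0.05 there were 2 of the 10, Cbln1 and Neurod1. The interval for Cbln1 ran from 0.01 to 0.27 around 0.14 (adjusted p = 0.429), and without a filter on low counts Cbln1 passed (adjusted p = 0.0399). For Neurod1 all 4 175QK772T libraries were above all 4 175Q libraries, by 0.09 ± 0.04 (adjusted p = 0.436). Calb2 differed by -0.01 with an interval from -0.09 to 0.07, Gabra6 by 0.00 (-0.08 to 0.09), Zic2 by -0.03 (-0.12 to 0.07) and Cbln3 by 0.07 (-0.04 to 0.18). Every difference within the interval of Calb2 was smaller than its rise over WT in either mutant. The intervals of Fat2 (-0.04 to 0.22), Zic1 (-0.02 to 0.17), Reln (-0.17 to 0.05) and Grin2c (-0.15 to 0.20) also held 0.

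**Figure D3:**
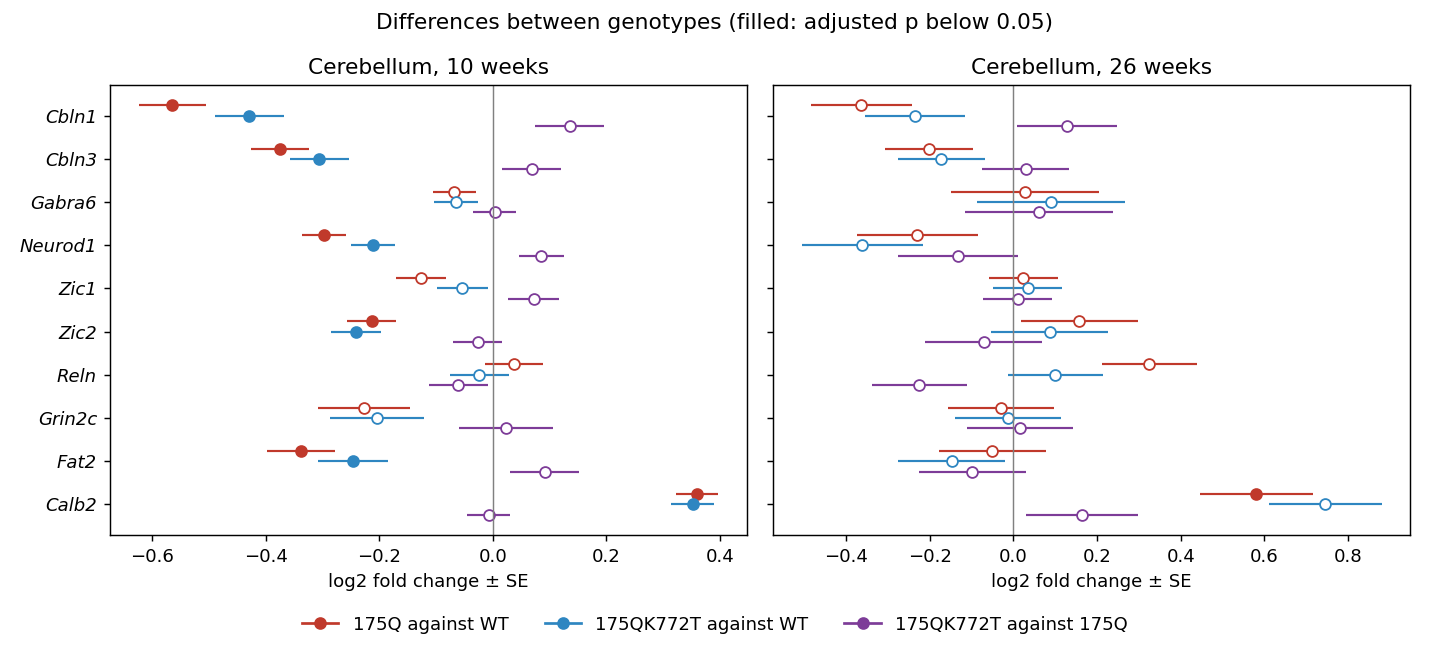
Log2 differences of the 10 genes in cerebellum for 175Q and 175QK772T against WT and for 175QK772T against 175Q at each age; bars are 1 SE to either side and filled points passed the test. At 10 weeks Cbln1 lies at -0.56 and -0.43 and Calb2 at 0.36 and 0.35 against WT, and the error bars at 26 weeks are wider.

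At 26 weeks 1 of the 10 genes passed in 175Q against WT, Calb2, which rose. Over 19156 genes 3.01% passed, 0.882% as higher. Calb2 was at 361, 358, 404 and 374 CPM in WT, 457, 477, 562 and 783 in 175Q and 641, 810, 555 and 537 in 175QK772T. All mutant libraries lay above all WT libraries, and the highest in each mutant group was the library with the high mitochondrial share. The rise in 175Q was 49.5% (log2 0.58 ± 0.13, interval 0.28 to 0.88, adjusted p = 0.0429). It lost its call without the sex term (adjusted p = 0.11) and on leaving out any single WT library, 175Q replicate 1 or 2, or 175QK772T replicate 1, 3 or 4 (0.0558 to 0.124).

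Cbln1 at 26 weeks was at 637, 676, 704 and 662 CPM in WT, 432, 471, 528 and 673 in 175Q and 544, 678, 521 and 546 in 175QK772T. The libraries of high mitochondrial share, at 673 and 678 CPM, lay inside the WT range, and the other 6 mutant libraries lay below it. The difference in 175Q was -0.36 ± 0.12 (adjusted p = 0.149), and -0.45 (0.0344) without 175Q replicate 4. Reln was at 353, 454, 423 and 403 CPM in WT and 491, 520, 555 and 476 in 175Q, with no overlap, and differed by 0.33 ± 0.11 (adjusted p = 0.177). Cbln3 (-0.20, adjusted p = 0.397), Neurod1 (-0.23, 0.492), Zic2 (0.16, 0.637), Fat2 (-0.05, 0.889), Zic1 (0.02, 0.921), Grin2c (-0.03, 0.938) and Gabra6 (0.03, 0.958) also missed the threshold.

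Leaving out both libraries of high mitochondrial share, an alternative chosen after the data were seen, gave 3 calls of 10 in 175Q against WT and 2608 over all genes in place of 576. Cbln1 then fell (-0.47, adjusted p = 0.00109), and Reln (0.36, 0.0139) and Calb2 (0.45, 0.00112) rose. In these 2 libraries Zic2 was at 261 and 218 CPM and Gabra6 at 916 and 1160, above all others of that age, and Neurod1, at 207 and 231 CPM, was below all others. What share of these departures goes with the mitochondrial share was not tested.

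For 175QK772T against WT at 26 weeks no gene of the 10 passed in edgeR, where 0.298% of all genes did. At an unadjusted p below 0.05 there were 2, Calb2 and Neurod1. DESeq2 called 1, Calb2, where 1.97% of all genes passed. Calb2 differed by 0.74 ± 0.14 (interval 0.45 to 1.04, adjusted p = 0.0501; 6.71e-05 in DESeq2) and Neurod1 by -0.36 ± 0.14 (adjusted p = 0.402). Without the 2 libraries Calb2 (0.66, adjusted p = 0.000443) rose and Cbln1 (-0.30, 0.0381) fell, where 3.64% of all genes passed. Between the mutants no gene of the 10 passed in edgeR, with or without these libraries, or in DESeq2. Of all genes 0.0992% passed in edgeR with these libraries, 8.71% without them and 2.11% in DESeq2. None of the 10 had an unadjusted p below 0.05 with all libraries. Every interval of this contrast held 0, and that of Calb2 ran from -0.13 to 0.46.

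Whether the 175Q difference itself changed between ages was tested on all 24 cerebellum libraries. None of the 10 genes passed in edgeR, with or without the libraries of high mitochondrial share, or in DESeq2. Of all genes 0.0332% passed in edgeR with these libraries, 0.521% without them and 0.308% in DESeq2. At an unadjusted p below 0.05 there were 3 of the 10: Zic2 (0.39 ± 0.17, adjusted p = 0.681), Reln (0.29 ± 0.13, 0.683) and Fat2 (0.30 ± 0.14, 0.73). Cbln1 changed by 0.22 ± 0.15 (0.822) and Calb2 by 0.24 (0.827). The smaller number of calls at 26 weeks is therefore not shown to be a smaller response.

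Other genes of the same cells and pathways were read from named lists. Of 12 further granule cell genes, 5 fell and 2 rose in 175Q at 10 weeks, with a median of -0.11. Chn2, which encodes the Rac-regulating protein beta-chimaerin, fell most (-0.58, adjusted p = 8.14e-07), and also fell in 175QK772T (-0.49, 2.35e-05) and in 175Q at 26 weeks (-0.53, 0.0288), the 1 call of 12 at that age. Neurod2, a relative of Neurod1, fell by 0.30 on the log2 scale (adjusted p = 0.00108) and the potassium channel gene Kcnd2 fell by 0.29 (0.00179). The 2 that rose, named after their values were seen, were Cadps2, which promotes release of dense-core vesicles (0.16, 0.00744), and the transcription factor gene Pax6 (0.16, 0.0338).

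Partners and relatives of these genes were read in 175Q against WT at 10 weeks. Of 11 reelin pathway genes 1 fell, the reelin receptor gene Lrp8 (-0.15, 0.00362). Of 12 further GABA-A subunit genes 1 fell, Gabra2 (-0.25, 0.0183), and Gabrd, which encodes the delta subunit that assembles with alpha 6, was at -0.13 (0.124). Of the 6 other NMDA receptor subunit genes none passed in edgeR (1 at an unadjusted p below 0.05, 0 called by DESeq2), with a median of -0.02. Of 4 other Fat and Dachsous cadherin genes 1 rose, Dchs1 (0.22, 0.00807). Among the other EF-hand calcium buffers Calb1 (-0.53, 7.03e-07) and Pvalb (-0.31, 0.000463) fell while Calb2 rose. Both are abundant in Purkinje cells, and Pvalb also in molecular layer interneurons.

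Markers of the other cerebellar cell types moved beside the granule cell genes, and their part in the results was not tested. All 12 Purkinje cell markers fell in 175Q at 10 weeks (median -0.55), among them Rgs8 (-0.86), Itpka (-0.73) and Car8 (-0.58). Their summed level was 9400 to 10500 CPM in WT, 6770 to 7320 in 175Q and 8550 to 9350 in 175QK772T. In 175QK772T against 175Q 11 of these 12 rose at 10 weeks, whereas no granule cell gene of the 10 passed that contrast. The summed level of the 10 granule cell genes was 6330 to 7300 CPM in WT, 5820 to 6170 in 175Q and 5940 to 6470 in 175QK772T. Of 5 unipolar brush cell markers 3 fell, among them Eomes (-0.67, adjusted p = 0.00187), with a summed level of 518 to 543 CPM in WT and 420 to 442 in 175Q. Calb2, which those cells also express, rose in the same libraries. Of 10 Bergmann glia and astrocyte markers 4 fell (median -0.16), summing to 5550 to 5870 CPM in WT and 5060 to 5250 in 175Q. Choroid plexus markers summed to 46.4 to 2490 CPM in WT and 2370 to 4360 in 175Q, a wide spread for a tissue that borders the cerebellum. Of 8 oligodendrocyte markers 1 fell, Cldn11 (-0.18, adjusted p = 0.0258), with 4 called as lower by DESeq2, and of 8 inhibitory interneuron markers 1 fell, Pvalb, with 2 called as lower by DESeq2. None of 7 microglia markers or 6 vascular markers passed in edgeR, with 1 of each at an unadjusted p below 0.05, and DESeq2 called 0 and 1. At 26 weeks 8 of the 12 Purkinje cell markers fell in 175Q (median -0.58), summing to 8290 to 10200 CPM in WT, 5190 to 6000 in 175Q and 6800 to 8130 in 175QK772T, and 5 of the 10 glial markers fell.

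Over the 12 libraries of each age, the genes most like Cbln1 were Wscd2, Rbfox3 and Slc25a29, with mean Pearson correlations over the 2 ages of 0.97, 0.96 and 0.96 among 11721 genes. In all these rankings the 10 genes themselves were skipped. Genes without a symbol, or with a symbol of the Gm-number or Rik kind, were also skipped. Cbln3 was most like Adcy1, Chn2 and Mindy1 (each 0.93), Calb2 most like Kctd8 (0.96), Capn5 (0.95) and Aacs (0.94), and Neurod1 most like Cep95 (0.94). Grin2c was most like Adam11 (0.94), Zic2 most like Tprn (0.95), Fat2 most like Mcam (0.86), and Reln most like Vps11 (0.83). The weakest best matches were those of Gabra6 with Rfc4 (0.83) and Zic1 with Zmiz1 and Gse1 (each 0.80). Among the 10 themselves Cbln1 correlated with Cbln3 at 0.96 and with Fat2 at 0.94 at 10 weeks, and with Calb2 at -0.83. At 26 weeks the same pairs were at 0.34, 0.31 and -0.05. The libraries of high mitochondrial share are among the 12 of that age, and the correlations were not computed without them. These correlations are descriptions over libraries that share genotype groups and batch.

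Outside the cerebellum the genes made up a different picture, led by Grin2c, Reln, Calb2 and Cbln1. Over the 8 sets of a region and age, 73 gene and set pairs passed the filter on low counts, and in 175Q against WT 24 of them fell and 3 rose. In edgeR 1 gene passed in brainstem at 10 weeks (all genes 2.93%), 5 in cortex (38.2%), 4 in hippocampus (19.6%) and 2 in striatum (32.7%). At 26 weeks 3 passed in medulla (18.5%), 4 in cortex (31.6%), 5 in hippocampus (40.8%) and 3 in striatum (45.4%). Between 8 and 10 genes were tested per set, and a share near that of all genes is no result about these 10.

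Grin2c fell in 7 of the 8 sets, all but brainstem at 10 weeks (-0.11, adjusted p = 0.653). In striatum at 26 weeks it was at 61.1, 60.2, 68.9 and 69.1 CPM in WT, 27.7, 31.6, 30.5 and 29.4 in 175Q, and 45.7, 50.5, 48 and 43.9 in 175QK772T. The 3 genotypes did not overlap, with 175QK772T between the others. It fell by 54% in 175Q there (log2 -1.12 ± 0.07, adjusted p = 1.27e-07), after -0.64 ± 0.07 (2.77e-05) at 10 weeks. In hippocampus the differences were -0.26 ± 0.06 (0.0088) at 10 weeks and -0.79 ± 0.06 (9.89e-08) at 26 weeks, and in cortex -0.39 ± 0.05 (6.6e-06) and -0.81 ± 0.08 (2.96e-05). In medulla it was -0.70 ± 0.10 (0.00022). Leaving out any single library ended none of these 7 calls. In cerebellum, where Grin2c was 7.36-fold higher than in any other region at 10 weeks, it did not pass at either age.

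Beside these falls, astrocyte markers fell in the same sets. Of the 10 on the list 8 fell in striatum at both ages (medians -0.42 and -0.62), 9 in cortex at 10 weeks and 9 in hippocampus at 26 weeks. They also fell where Grin2c did not pass, 4 in brainstem at 10 weeks, and 4 and 5 in cerebellum at 10 and 26 weeks. In striatum at 26 weeks their summed level was 5110 to 5920 CPM in WT, 3270 to 3950 in 175Q and 4110 to 4970 in 175QK772T. None of the markers was at 0 in any group, and their part in the Grin2c result was not tested.

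Calb2 fell in 6 of the 8 sets outside the cerebellum, opposite in sign to its rise within it. In striatum it did not pass at either age (0.54, adjusted p = 0.548, and 0.09, 0.83). Without the low-count filter Calb2 passed there as higher at 10 weeks (adjusted p = 5.1e-05), where 175Q replicate 2 alone stood at 32.3 CPM. The same library held more of the thalamus markers Slc17a6 (31.6 CPM against 4.03 to 8.79 in the other 175Q libraries) and Tcf7l2 (10.9 against 4.08 to 5.12). Their part in this value was not tested. In medulla at 26 weeks it was at 133, 149, 134 and 141 CPM in WT, 71.8, 88.5, 76.4 and 77.7 in 175Q and 108, 96.4, 96.2 and 97.8 in 175QK772T, with no overlap among the 3 genotypes (175Q against WT -0.83 ± 0.06, adjusted p = 6.89e-07). In brainstem at 10 weeks the 4 WT libraries (157, 141, 122 and 148 CPM) lay above the 4 of 175Q (102, 96.1, 97.2 and 98.8; -0.53 ± 0.07, adjusted p = 0.00104). It also fell in hippocampus at 10 weeks (-0.55 ± 0.10, 0.00186) and 26 weeks (-0.73 ± 0.22, 0.0159) and in cortex at 10 weeks (-0.39 ± 0.12, 0.0197). The last 2 were lost on leaving out some single libraries, with adjusted p up to 0.0784. In cortex at 26 weeks the difference of -2.10 ± 0.71 (0.0431) rested on WT replicate 1, which stood at 113 CPM against 8.95 to 11.5 in the other WT libraries. Without it the difference was -0.60 (adjusted p = 8.37e-05), and without any single 175Q or 175QK772T library the call was lost (0.0609 to 0.137). That library also held more Slc17a6, a marker of thalamic and brainstem neurons (193 CPM against 21.4 to 28.5), and more of the choroid plexus transcript Ttr (2570 CPM against 3.44 to 28.4). The cerebellum-restricted Cbln3 was at 3.74 CPM in that library, against at most 0.631 in the other WT libraries. The thalamus marker Tcf7l2 was not raised in it (3.72 CPM against 3.93 to 5.36), and the part of these tissues in the result was not tested.

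Cbln1, in medulla at 26 weeks, was at 50.6, 51.1, 57.4 and 68.8 CPM in WT, 30.7, 35.6, 36.6 and 34.7 in 175Q and 46.2, 44.7, 38.7 and 42.8 in 175QK772T. The genotypes did not overlap, and it fell in 175Q by 0.73 on the log2 scale (SE 0.09, adjusted p = 7.15e-05). WT replicate 4, the library at 68.8 CPM, also held cerebellum-restricted transcripts (Cbln3 at 44.5 CPM against at most 7.68 in the other WT libraries). What these add to the fall was not tested. In hippocampus at 26 weeks Cbln1 fell from 10.7 to 14 CPM in WT to 4.88 to 7.26 in 175Q (-1.08 ± 0.14, 3.2e-05). It also fell in cortex at 26 weeks (-1.81 ± 0.44, 0.00867; -0.99, 6.9e-05 without WT replicate 1, at 38 CPM) and in striatum at 10 weeks (-0.88 ± 0.32, 0.0482), a call that ended on leaving out most single libraries.

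Reln, which in the forebrain is made mainly by interneurons, fell in cortex at both ages. At 10 weeks cortex gave 74.6, 78, 78.8 and 72.3 CPM in WT, 66, 51.5, 52.7 and 53.8 in 175Q and 58.2, 59.2, 54.2 and 58.2 in 175QK772T (175Q against WT -0.44 ± 0.06, adjusted p = 2.59e-05). At 26 weeks the difference was -0.74 ± 0.09 (0.000188). It also fell in hippocampus at both ages (-0.50 ± 0.07, 0.000369, and -0.52 ± 0.15, 0.0135) and in striatum at 26 weeks (-0.45 ± 0.15, 0.0307), the last lost without any of 5 single libraries. In cerebellum at 26 weeks all 4 175Q libraries were above WT. Of 8 forebrain interneuron markers, which do not include Reln or Calb2, all 8 fell in cortex and hippocampus at 10 weeks, 7 in cortex and 8 in hippocampus at 26 weeks. In striatum 5 of these markers fell at 10 weeks, where neither Reln nor Calb2 fell, and 6 at 26 weeks. In brainstem 3 fell and in medulla 5, where Calb2 fell and Reln did not. Their summed level in cortex at 10 weeks was 927 to 1010 CPM in WT, 566 to 647 in 175Q and 638 to 706 in 175QK772T. Their part in the Reln and Calb2 results was not tested.

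Neurod1 rose in cortex at 10 weeks, from 9.85 to 11 CPM in WT to 13.2 to 15.8 in 175Q (0.46 ± 0.07, adjusted p = 3.18e-05), where it fell in cerebellum. Zic2 rose there as well (0.24 ± 0.08, 0.0208), a call lost on leaving out any of 4 single libraries. Zic1 passed in none of the 8 sets in 175Q against WT. Fat2 fell in hippocampus at 10 weeks (-2.07 ± 0.55, 0.0185) and 26 weeks (-1.30 ± 0.42, 0.0231) at levels of at most 1.5 CPM. At 10 weeks WT replicates 1 and 2 held most of it (1.5 and 1.28 CPM) together with Gabra6 (1.37 and 0.756 CPM), and the call was lost without either of them or without 175Q replicate 4. Cbln3 rose in striatum at 26 weeks (1.53 ± 0.30, 0.00117), where every library was at or below 1.45 CPM.

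Gabra6 was tested outside cerebellum in brainstem and medulla alone, and passed in neither (0.65 and -0.66). There the cerebellum-restricted genes stood out in single libraries. Brainstem 175Q replicate 1 held 56.4 CPM of Cbln3, 31.4 of Fat2 and 27.3 of Gabra6 against at most 14.2, 6.87 and 5.75 in the other 175Q libraries, and medulla WT replicate 4 held 44.5, 24.9 and 17.1 CPM. The Purkinje cell marker Pcp2 was also raised in them, at 5.22 and 6.28 CPM. The other libraries of their groups held 0.964 to 1.3 and 1.36 to 1.87 CPM. In brainstem every 175QK772T library also held more Pcp2 (3.01 to 3.98 CPM) than every WT library (0.792 to 2.41). What cerebellar tissue adds to these results was not tested. Without brainstem 175Q replicate 1 Cbln1 fell in brainstem (-0.40, adjusted p = 0.00315), against -0.26 (0.153) with it.

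**Figure D4:**
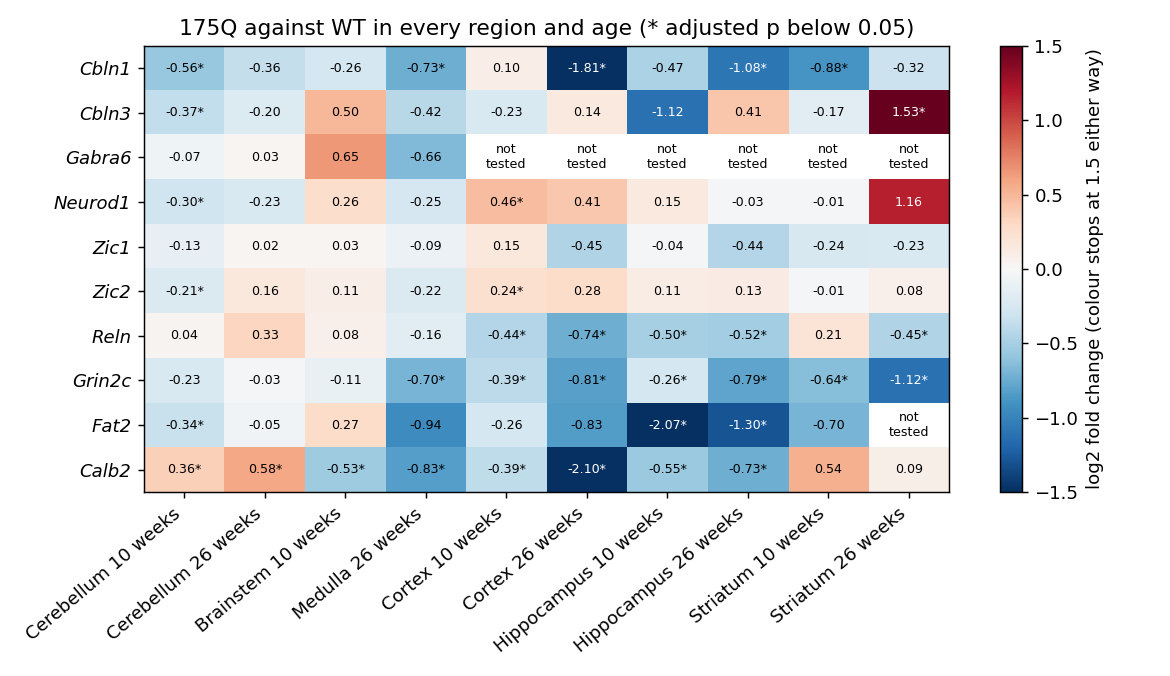
Log2 difference of 175Q against WT for the 10 genes in each region and age; colour runs from lower (blue) to higher (red) and stops at 1.5 in either direction, a star marks an adjusted p below 0.05, and genes under the low-count filter are marked as not tested. Grin2c is starred in 7 of the 8 sets outside cerebellum, and Calb2 is positive in cerebellum and negative in brainstem and medulla.

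The 175QK772T allele moved fewer of these pairs against WT, 13 falling and 2 rising of 73, and the contrast shares its WT libraries with the previous one. In brainstem at 10 weeks none passed in edgeR (all genes 0.0331%), with 1, Calb2, at an unadjusted p below 0.05 and 0 in DESeq2. At 10 weeks 3 passed in cortex (25.9%), 4 in hippocampus (10.8%) and 2 in striatum (19%), and at 26 weeks 2 in medulla (2.08%), 1 in cortex (8.83%), 2 in hippocampus (19%) and 1 in striatum (23.4%). Grin2c fell in cortex (-0.20, adjusted p = 0.00656) and striatum (-0.39, 0.00291) at 10 weeks and in hippocampus (-0.34, 0.000678) and striatum (-0.47, 0.000425) at 26 weeks. Reln fell in cortex at both ages (-0.42, 9.37e-05, and -0.47, 0.0102) and in hippocampus at 10 weeks (-0.42, 0.00304). Neurod1 rose in cortex (0.46, 6.65e-05) and in hippocampus (0.40, 0.0164) at 10 weeks, the latter lost without WT replicate 3 (0.0621) or 175QK772T replicate 4 (0.0566). In medulla Calb2 (-0.48, 0.00068) and Cbln1 (-0.40, 0.029) fell, and the call of Cbln1 was lost without any of 4 single libraries. The WT group there includes replicate 4, which held cerebellum-restricted transcripts.

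Set directly against 175Q, 175QK772T was higher in all 7 pairs that passed of 73, and all 7 were at 26 weeks. In medulla 2 passed (all genes 9.46%), in cortex 1 (3.46%), in hippocampus 3 (15.7%) and in striatum 1 (13.6%). At 10 weeks none passed in brainstem (0.0568%), cortex (1.05%), hippocampus (0.0332%) or striatum (0.600%) in edgeR, with 1, 2, 1 and 2 pairs at an unadjusted p below 0.05 and 1, 1, 0 and 0 called by DESeq2. Grin2c was higher by 0.66 ± 0.07 in striatum (adjusted p = 0.000152), 0.59 ± 0.08 in cortex (0.00444) and 0.46 ± 0.06 in hippocampus (0.000222). In hippocampus its libraries were at 59.6, 64, 67.4 and 63.3 CPM in WT, 36.6, 34.4, 39.9 and 35.6 in 175Q and 50.6, 49.5, 53.3 and 48 in 175QK772T, again without overlap. Cbln1 was higher by 0.70 ± 0.14 in hippocampus (0.00497) and by 0.32 ± 0.09 in medulla (0.0386), and Calb2 by 0.34 ± 0.06 in medulla (0.00489). Reln in hippocampus was higher by 0.51 ± 0.15 (0.0363), a call that ended in DESeq2 (0.06) and on leaving out any of 6 single libraries (0.0557 to 0.114). The medulla call of Cbln1 ended on leaving out any of 7 single libraries.

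**Figure D5:**
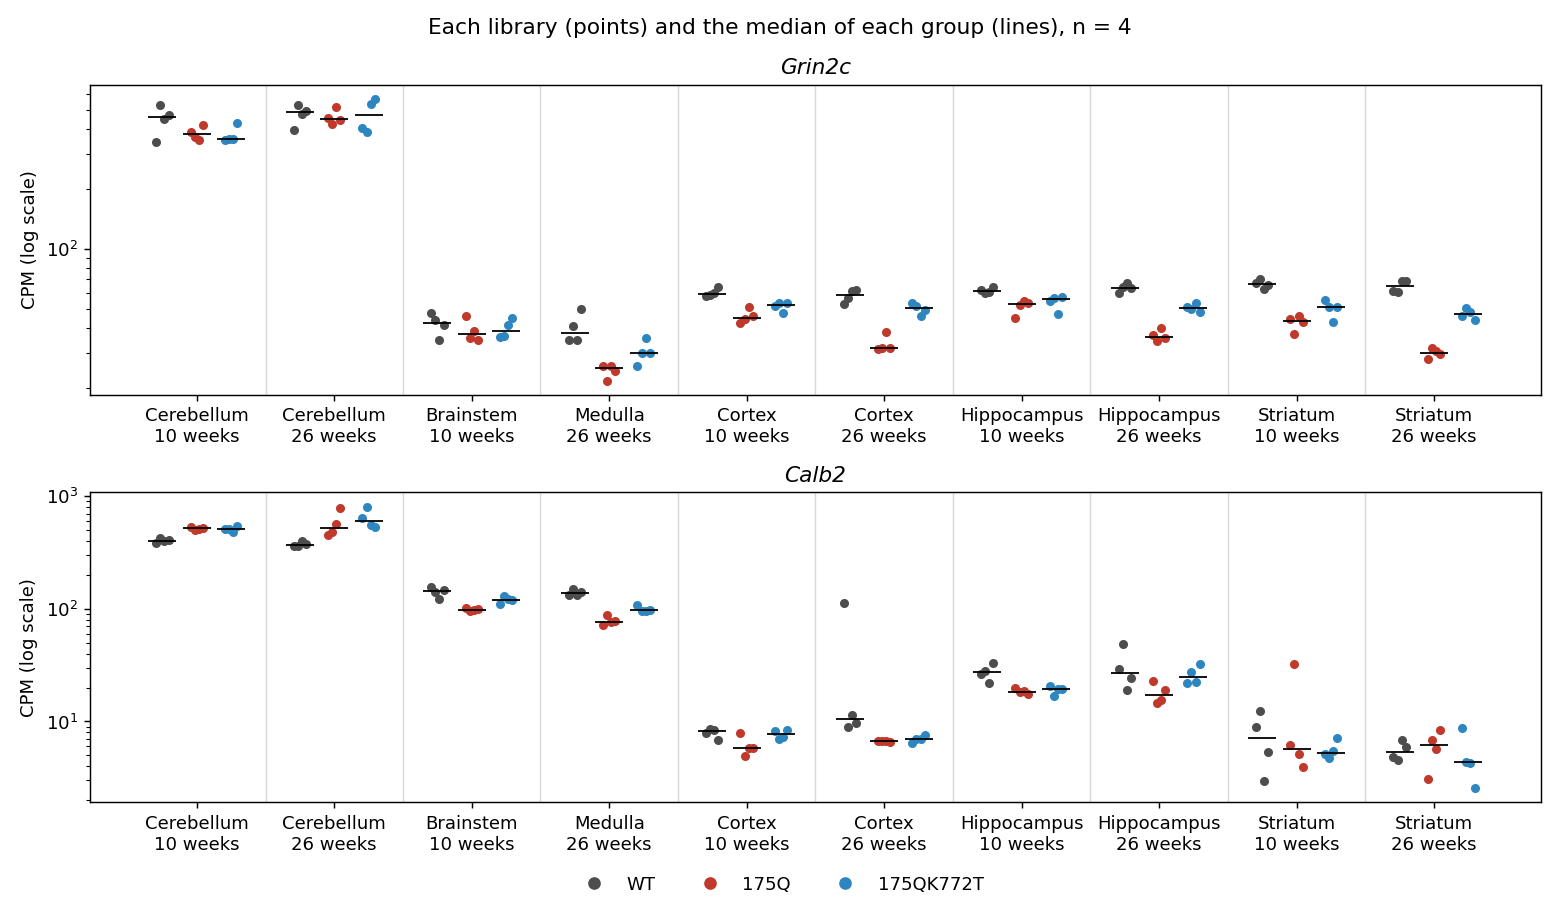
CPM of Grin2c and Calb2 in each library by region, age and genotype, on a log scale; points are mice and lines are group medians. Grin2c in striatum at 26 weeks separates into 60.2 to 69.1 CPM in WT, 27.7 to 31.6 in 175Q and 43.9 to 50.5 in 175QK772T, while Calb2 is above WT in mutant cerebellum and below it in mutant medulla.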

How the data were processed

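RNA from 120 dissected brain regions was sequenced as poly(A) libraries on a NovaSeq 6000 with 150-nt paired reads. The authors deposited raw counts per gene, 1 table per age. Per the submitters' processing notes, bcl2fastq 2.20.0, Trimmomatic 0.33, HISAT2 2.1.0, Subread 1.6.2 and GRCm38 were used. Per the file headers, counting at 10 weeks used Ensembl release 97, properly paired reverse-stranded fragments and a mapping quality of at least 10. At 26 weeks these settings are not given in the sources used here.

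The members and gene lists were chosen with earlier results of these data known. The 12 libraries of 1 region and age (4 mice per genotype) formed a separate fit with edgeR 4.0.16 in R 4.3.3: filterByExpr, TMM scaling, a quasi-likelihood test with genotype and sex, and Benjamini-Hochberg adjustment over all genes tested, called at an adjusted p below 0.05. A fit on 24 cerebellum libraries tested genotype by age, and a fit on the 20 WT libraries of each age with region as the term tested cerebellum against the mean of the others. CPM uses TMM-scaled library sizes and TPM uses exonic lengths. The CPM of Slc17a6, Tcf7l2, Ttr and Pcp2, and the summed marker levels outside cerebellum, use total counts without that scaling. Intervals are at the 95% level. All 10 members were described in every set; from each list up to 4 genes of smallest adjusted p in 175Q against WT in cerebellum at 10 weeks could be named, with all genes of lists of 4 or fewer, and the 3 genes most like each member among those of at least 5 mean CPM at both ages. Cadps2, Pax6 and Pcp2, also list genes, were named after their values were seen. Some list genes that this rule would name are not reported here. The alternatives were DESeq2 1.42.0, RLE scaling, no low-count filter, no sex term, the replicate number as a block, and each library left out. Among libraries of the same region, age and genotype, no 2 were copies of each other, and other pairs were not compared. The fitting code was tested on simulated data.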

Additional observations from a re-analysis of the deposited data

Results flagged for a closer look

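For each gene, region, age and genotype with a group mean of at least 1 CPM, the 4 libraries were searched for one far from the other 3. Of 252 such groups 34 had one, where chance gives about 12.6, and the flags gathered in a few libraries. All values are CPM.

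In brainstem at 10 weeks 175Q replicate 1 stood above its group in Cbln3 (56.4), Fat2 (31.4), Gabra6 (27.3) and Neurod1 (11.4), and in medulla at 26 weeks WT replicate 4 did so in Cbln3 (44.5), Fat2 (24.9), Gabra6 (17.1), Neurod1 (10.9), Zic1 (97) and Zic2 (17.8). In cortex at 26 weeks WT replicate 1 stood apart in Calb2 (113), Cbln1 (38), Cbln3 (3.74) and Fat2 (2.94), and 175QK772T replicate 2 in Cbln1 (6.24), Cbln3 (3.89), Fat2 (2.48) and Zic1 (17.6).

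In cerebellum the libraries apart were WT replicate 1 at 10 weeks, low in Fat2 (739) and Zic1 (825), 175QK772T replicate 4 at 10 weeks in Grin2c (431), and the libraries of high mitochondrial share at 26 weeks, 175Q replicate 4 in Zic2 (261) and 175QK772T replicate 2 in Cbln1 (678) and Zic2 (218).

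Single genes stood apart in brainstem 175QK772T replicate 4 (Cbln1, 58.2), cortex 175Q replicate 1 at 10 weeks (Reln, 66), cortex 175Q replicate 3 at 26 weeks (Grin2c, 38), hippocampus 175QK772T replicate 4 at 10 weeks (Zic1, 8.97) and hippocampus WT replicate 2 at 26 weeks (Zic1, 38.7). The others were medulla 175QK772T replicates 1 (Calb2, 108) and 2 (Fat2, 5.56), striatum 175Q replicate 2 at 10 weeks (Calb2, 32.3), and in striatum at 26 weeks 175QK772T replicate 4 (Reln, 227) and WT replicate 3 (Neurod1, 4.09).

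In 6 of 73 pairs of a gene and another region (8.22%) every 175Q library lay on one side of WT in cerebellum and on the other side in that region, against 0.881% of such pairs over all genes tested in both; these differences were not tested, and 4 of the 6 are the single gene Calb2. The log2 difference in cerebellum minus that in the other region was, for Calb2, 0.89 against brainstem and 0.91 against hippocampus at 10 weeks, and 1.41 against medulla and 2.68 against cortex at 26 weeks, the last resting on a cortex difference that moved from -2.10 to -0.60 without WT replicate 1. For Neurod1 it was -0.76 against cortex at 10 weeks, and for Reln 1.06 against cortex at 26 weeks.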

How the results depend on the processing

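No member result changed sign after passing the test. Of 5120 recomputed values 4899 kept their side of the threshold, 225 of them with a change of sign between values that never passed, 106 lost the call and 115 gained it. Genes called in cerebellum at 10 weeks moved from 826 to 1370 (DESeq2) and 1418 (no filter) for 175QK772T against WT, and from 244 to 572 and 942 for 175QK772T against 175Q, where 1 member, Cbln1, then passed without the filter. At 26 weeks 175Q against WT went from 576 to 1314 (DESeq2) and 1042 (no filter). 175QK772T against WT went from 57 to 377 and 447, with 1 member called in each, and 175QK772T against 175Q from 19 to 404 and 252. Without a sex term that last count was 12, and 0 members passed for 175Q against WT. The age comparison went from 7 to 65 (DESeq2) and 4 (no sex term). Without the 2 libraries of high mitochondrial share, chosen after the data were seen, the counts at 26 weeks were 2608, 702 and 1682 and the age comparison 114, with 3 and 2 members against WT. Members called in the 8 other sets went from 27 to 44 without the filter. Leaving out the filter changes the spread that the test assumes, so calls gained that way need not be larger differences.

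Leaving out 1 library gave 1618 to 2696 genes for 175Q against WT at 10 weeks (6 to 8 members), 514 to 951 for 175QK772T against WT (5 to 7) and 148 to 323 between the mutants. At 26 weeks it gave 202 to 669 (0 to 2 members), 16 to 171 (0 to 1) and 1 to 44, 4 to 8 for the age comparison, and 25 to 28 members in the other sets.

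Replicate numbers name different mice in each genotype, and deviations of same-numbered libraries correlated at -0.14 to 0.20 in cerebellum at 10 weeks and -0.56 to 0.17 at 26 weeks. With the replicate block 2021, 755 and 179 genes passed at 10 weeks and 185, 11 and 1 at 26 weeks, with 0 members for 175Q against WT at 26 weeks (Calb2 0.59, adjusted p = 0.258) and 24 in the other sets. In the WT region comparison, where regions do come from the same mice, the block left all 10 members called (15759 and 13757 genes in all).

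The 26-week libraries were shallower, and in the forebrain regions Gabra6, Fat2 and Cbln3 lay mostly near or below 1 CPM, where a few counts make a large fold.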
